A study of Rattus norvegicus with 83 samples.

Results

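Mitochondrial respiration depends on nuclear genes that encode most subunits of the respiratory complexes and all of their assembly factors. The genes described here are those rows of the count table whose symbol begins with Nduf, Sdha, Sdhb, Sdhc, Sdhd, Uqcr, Cyc1, Cox4, Cox5, Cox6, Cox7, Cox8 or Atp5 and whose mean over all 83 libraries was at least 10 CPM (a gene's count scaled to a common total per library). Of 17483 rows, 94 matched by symbol and 87 of these met the level. Complex I had 41 members (7 core subunits, 27 accessory subunits and 7 assembly factors), complex II 6, complex III 9, complex IV 15 and complex V 16. The members nearest above the level were Ndufaf1 with a mean of 12.6 CPM, Ndufaf6 with 16.2 and Ndufaf4 with 19.8, and those nearest below were Cox8b with 4.19, Cox6a2 with 3.83 and Sdhaf3 with 3.71. A level of 5 CPM gave the same 87 genes and a level of 20 CPM gave 84.

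Complex I takes electrons from NADH and complex II takes them from succinate. Both pass them through ubiquinone to complex III and on through cytochrome c to complex IV, which reduces oxygen, and complex V uses the proton gradient so built to make ATP. In steroid-making cells, mitochondria also hold the first step of steroid synthesis, the cleavage of the cholesterol side chain.

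RNA was counted by bulk RNA barcoding and sequencing, in which the 3′ ends of polyadenylated RNA are tagged per sample and the samples are pooled. The libraries came from the offspring of Sprague-Dawley rat dams given corn oil (vehicle), methimazole or amitrole by gavage from gestational day 7. Methimazole (MMI) was given at 8 or 16 mg/kg per day and amitrole (Ami) at 25 or 50 mg/kg per day, and both drugs inhibit thyroid peroxidase. At gestational day 21 (GD21) each of vehicle, MMI8, MMI16, Ami25 and Ami50 had 6 libraries, and at pup day 16 (PD16) they had 10, 10, 10, 11 and 12. The 4 treated groups of a stage were compared with the same vehicle libraries. No label names litters or animals, so p-values measure the spread between these libraries only.

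The labelled tissue is testis, and testis markers summed to less than markers of the adrenal gland. The 14 testis markers in the table summed to between 18.9 and 371 CPM per library, and 1 of them, Dmrt1, had no count. The 9 adrenal cortex markers summed to between 10087 and 65340 CPM and 8 adrenal medulla markers to between 740 and 2230. Embryonic globins, made before birth, took 14.8% of globin counts in PD16 vehicle, 17.1% in PD16 MMI8 and 16.4% in PD16 MMI16 (group means), against 0.16% in GD21 vehicle, 0.18% in PD16 Ami25 and 0.14% in PD16 Ami50. Eif2s3y, which is carried by the Y chromosome, stayed under 10 CPM in 8 of 12 libraries labelled PD16 Ami50 and passed 10 CPM in all others. In 15 libraries albumin (Alb) read 200 CPM or more. Total counts ran from 202270 to 1627114. Groups are therefore called by their labels only. Embryonic globin and Eif2s3y separate groups labelled PD16 against the labels. Between PD16 amitrole and PD16 vehicle, a difference of treatment, of stage or of label therefore cannot be told apart in any result below. The same holds for PD16 Ami50 against MMI16 and for every comparison or interaction term across the labelled stages. In each comparison with PD16 Ami50, that with Ami25 included, a difference of sex cannot be told apart either. Where leaving out libraries low in Eif2s3y or high in Alb moved a count by over 1.5 times, the count without them is given. It stands beside the result or in the closing section.

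Promoter sequences are shown for 4 members on which the results below turn: Ndufa10, which fell in every treated PD16 group; Sdha, which rose most in the amitrole groups; and Cox4i1 and Ndufs7, which did not overlap between PD16 Ami50 and vehicle. They are RefSeq sequences of build GRCr8, 250 bases before to 50 after the gene start, at chr9:100489215-100489514 (minus strand), chr1:30764303-30764602 (plus), chr19:65630133-65630432 (plus) and chr7:10110449-10110748 (minus). Cox4i1 and Ndufs7 were chosen because they also hold a motif that Sdha lacks. Capitals mark matches, on either strand, to the motifs of nuclear respiratory factor 1 (NRF1), of ETS-family factors such as GABP (CCGGAAG) and of YY1. The NRF1 motif has 1 open position, and the capitals in Sdha and in Ndufs7 spell the NRF1 and YY1 matches.
Ndufa10: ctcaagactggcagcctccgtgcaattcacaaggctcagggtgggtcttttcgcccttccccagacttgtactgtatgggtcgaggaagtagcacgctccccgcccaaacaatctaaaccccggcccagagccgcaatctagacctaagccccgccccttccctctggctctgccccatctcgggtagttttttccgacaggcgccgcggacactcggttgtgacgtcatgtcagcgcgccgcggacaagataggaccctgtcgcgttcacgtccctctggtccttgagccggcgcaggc
Sdha: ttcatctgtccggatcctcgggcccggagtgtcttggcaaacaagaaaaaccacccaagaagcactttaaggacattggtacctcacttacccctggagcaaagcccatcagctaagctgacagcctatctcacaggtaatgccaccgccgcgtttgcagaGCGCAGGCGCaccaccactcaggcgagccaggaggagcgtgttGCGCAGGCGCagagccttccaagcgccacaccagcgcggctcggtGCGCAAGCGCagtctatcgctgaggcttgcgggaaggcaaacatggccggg
Cox4i1: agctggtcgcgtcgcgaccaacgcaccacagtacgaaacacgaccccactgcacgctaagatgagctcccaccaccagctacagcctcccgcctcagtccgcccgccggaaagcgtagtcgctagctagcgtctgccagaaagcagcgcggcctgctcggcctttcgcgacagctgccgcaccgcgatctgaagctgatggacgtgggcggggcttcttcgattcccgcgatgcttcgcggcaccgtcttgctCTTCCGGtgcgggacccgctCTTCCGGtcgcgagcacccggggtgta
Ndufs7: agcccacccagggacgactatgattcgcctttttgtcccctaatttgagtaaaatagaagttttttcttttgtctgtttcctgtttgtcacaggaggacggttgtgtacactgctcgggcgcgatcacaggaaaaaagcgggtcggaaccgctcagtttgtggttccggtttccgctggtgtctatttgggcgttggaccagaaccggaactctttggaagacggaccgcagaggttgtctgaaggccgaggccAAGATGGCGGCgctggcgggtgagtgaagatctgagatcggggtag

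Sdha held 3 matches to the NRF1 motif, which 29 of all 27457 promoters in the table did (0.106%). Cox4i1 held 2 matches to the ETS motif, Ndufs7 held 1 to the YY1 motif, and Ndufa10 held none of the 3. Of the 87 members, 76 were in the promoter table. The NRF1 motif was in 19.7% of these and in 4.71% of all promoters, the ETS motif in 31.6% and 9.22%, and the YY1 motif in 15.8% and 1.2%. Among the 48 members with a promoter that were called higher in PD16 Ami50, the shares were 18.8%, 33.3% and 20.8%, and among the 23 not called they were 21.7%, 30.4% and 8.7%. A match is a description of the letters and no evidence of binding.

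Together the members took 5.25 ± 0.13% of counts in PD16 vehicle (SD, n = 10), 5.56 ± 0.11% in MMI8 (n = 10), 5.51 ± 0.26% in MMI16 (n = 10), 6.15 ± 0.44% in Ami25 (n = 11) and 6.28 ± 0.26% in Ami50 (n = 12). At GD21 their share was 5.82 ± 0.22% in vehicle and lay between 5.80% and 5.98% in the treated groups (n = 6 each). The lowest PD16 Ami50 library, at 5.82%, lay above the highest PD16 vehicle library, at 5.57%. With TMM-scaled totals this separation held (59248 CPM at the lowest in Ami50, 54790 at the highest in vehicle). PD16 Ami25 overlapped with vehicle on that scale, at 45426 to 72033 CPM against 49041 to 54790. With TMM-scaled totals, the summed CPM of MMI16 was 50921 against 51594 in vehicle, the reverse of the unscaled order of 55064 against 52508, so no order of those 2 groups is given.

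**Figure D1:**
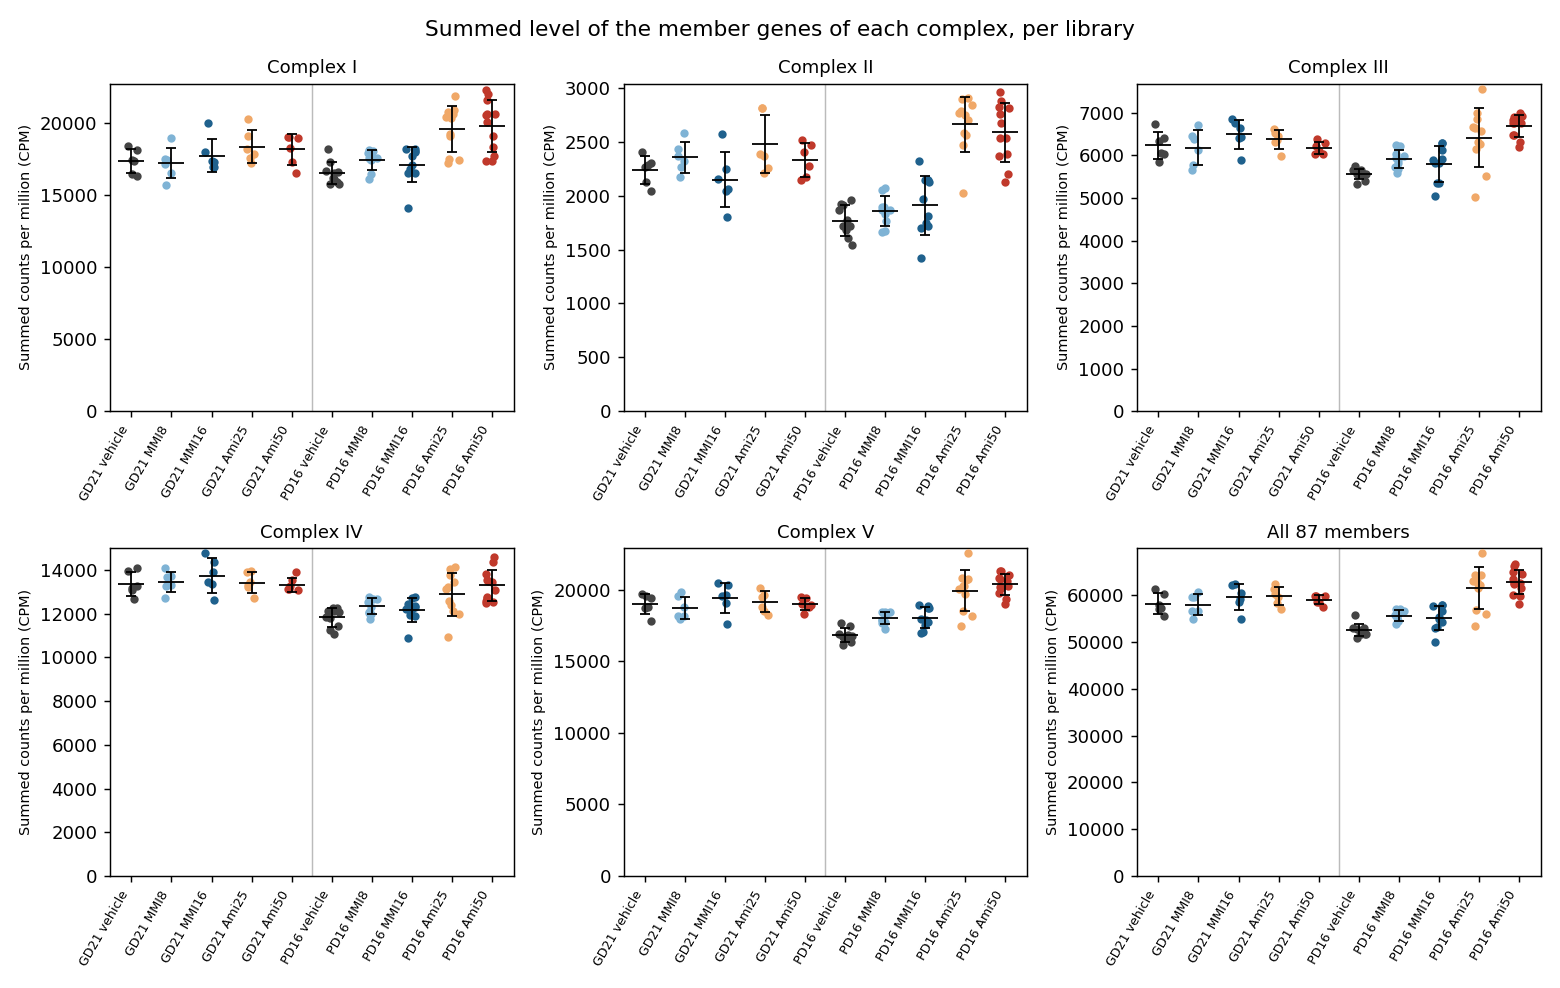
Summed CPM of the members of each complex in each of 83 libraries (points), with group mean and SD (bar and whiskers), for 5 groups labelled GD21 on the left of the grey line and 5 labelled PD16 on the right. In the panel of all 87 members, PD16 vehicle averaged 52508 CPM and PD16 Ami50 62767 CPM.

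By complex, the sum in PD16 vehicle and PD16 Ami50 averaged 16503 and 19799 CPM for complex I, 1769 and 2589 for complex II, 5565 and 6687 for complex III, 11835 and 13298 for complex IV, and 16836 and 20394 for complex V. The plot of summed levels shows that the libraries of the 2 groups did not overlap for complexes II, III, IV and V. For complex I the lowest Ami50 library (17352 CPM) lay below the highest vehicle library (18178 CPM). With TMM-scaled totals both statements turned: complex I did not overlap (18193 CPM at the lowest in Ami50, 17877 at the highest in vehicle) and complex IV did (12032 against 12437). The sum of the 9 adrenal cortex markers averaged 19224 CPM in PD16 vehicle, 23545 in MMI8, 22205 in MMI16, 43322 in Ami25, 46525 in Ami50 and 33818 in GD21 vehicle, and globins took 3.81%, 4.09%, 4.05%, 9.60%, 8.86% and 8.93% of counts. In the same order, the sum of 11 leukocyte markers averaged 202, 136, 138, 356, 368 and 482 CPM, that of 8 medulla markers 888, 971, 951, 1341, 1303 and 1206, and that of 14 testis markers 214, 271, 204, 96.1, 94.8 and 111. In bulk RNA, fewer cells of a type and less RNA per cell cannot be told apart, and the part of these markers in the result was not tested.

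In the PD16 amitrole groups more than the background share of members rose and few fell. edgeR's quasi-likelihood test with Benjamini-Hochberg adjustment called 53 of the 85 members tested higher and 4 lower in Ami50 against vehicle, where 27.1% of all 4906 tested genes were higher and 26.5% lower (53.5% in either direction). In Ami25 it called 45 higher and 5 lower, where 27.9% of genes were higher and 27.5% lower (55.4%). The median log2 fold change of the members was 0.29 in Ami50 and 0.23 in Ami25, and that of all genes 0.02 and 0.01. Ndufaf1 and Ndufaf6 were too low to be tested. In Ami50, 14 of the 53 that rose did so by at least 1.5-fold and 1 by at least 2-fold. Without the 8 of 12 Ami50 libraries that had Eif2s3y under 10 CPM, 49 members were higher and 3 lower in Ami50. Of all genes, 1138 were higher and 1218 lower in that fit. It kept 47 of the 57 members called with all libraries, and 1 of the 57 changed sign.

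**Figure D2:**
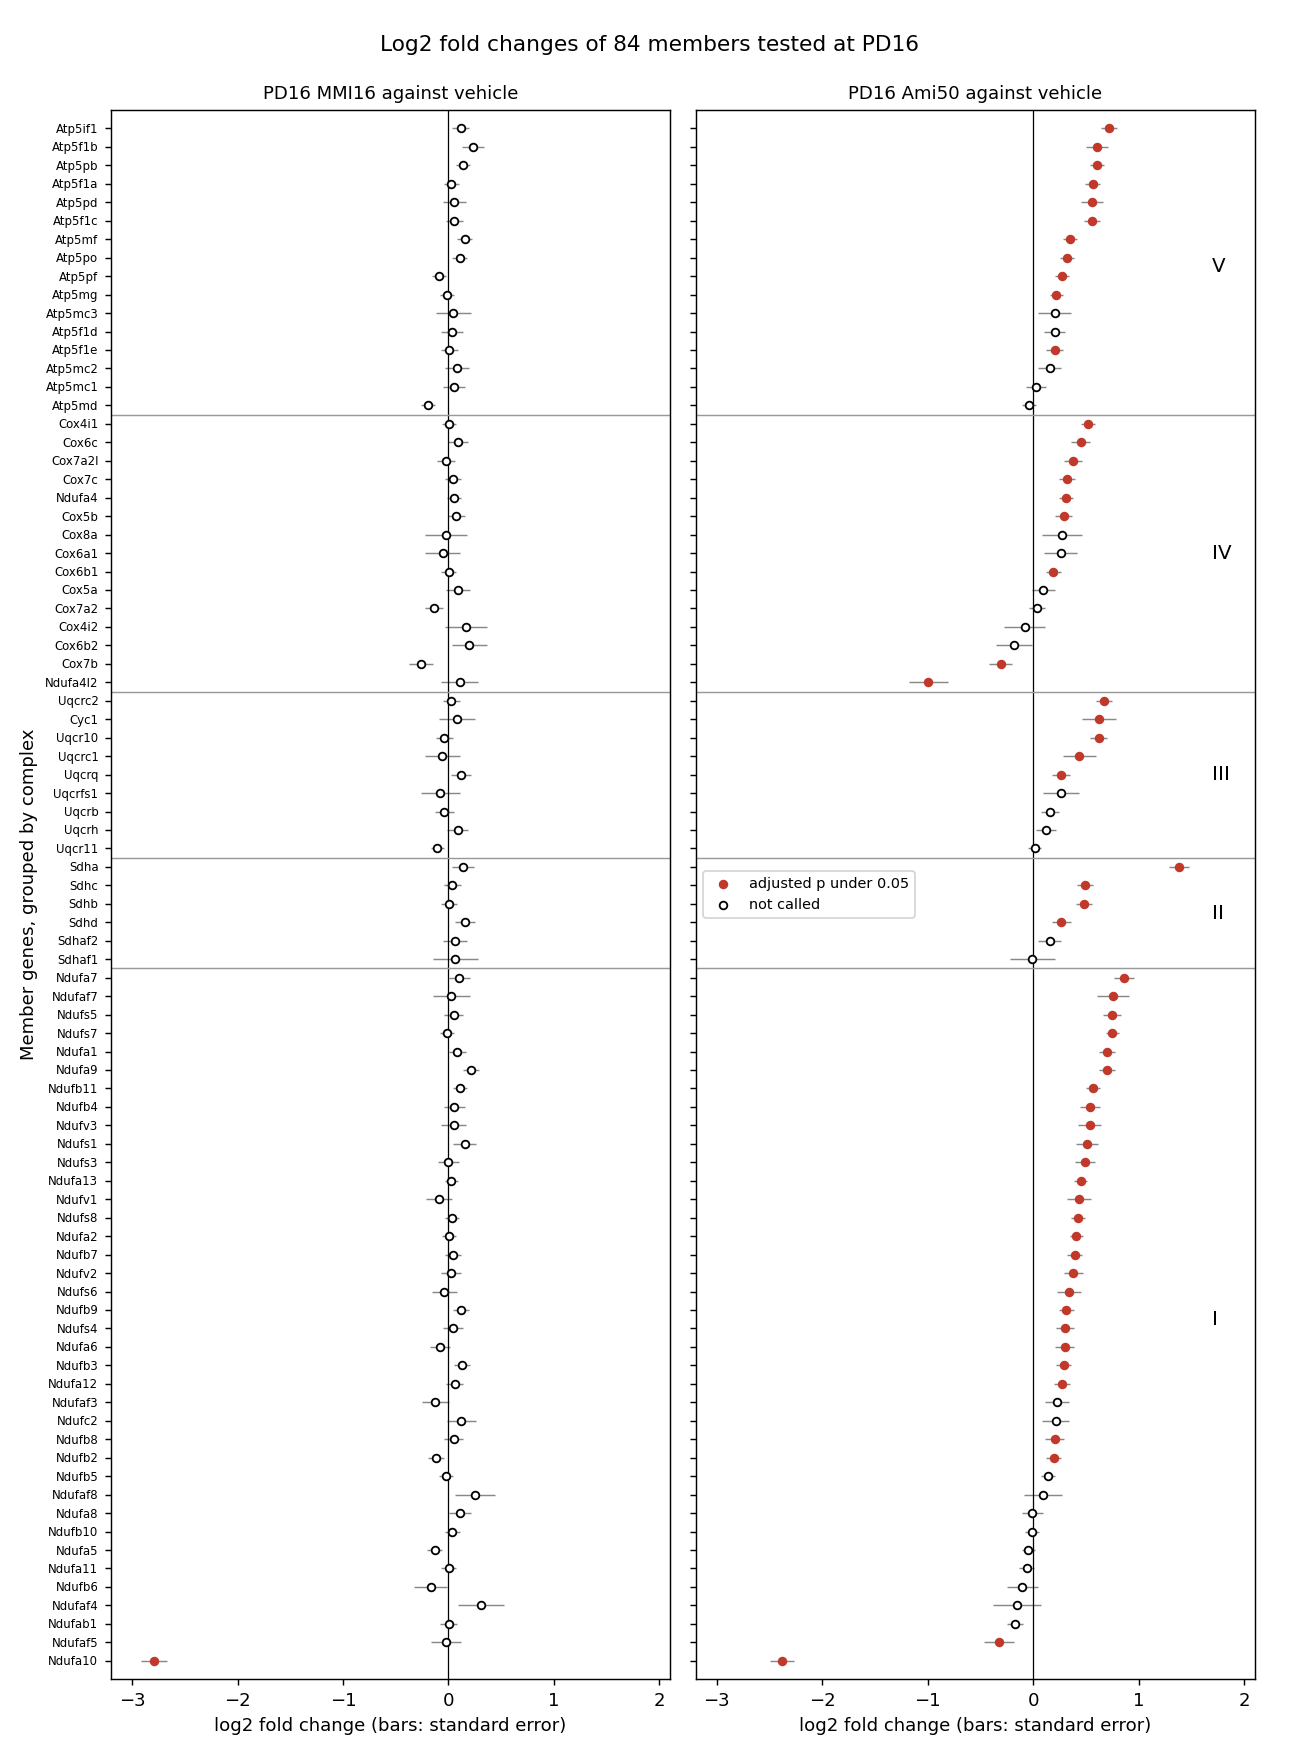
Log2 fold change with standard error (horizontal bars) of 84 of the 85 members tested at PD16, grouped by complex, for MMI16 (left) and Ami50 (right) against the same vehicle libraries; filled points have an adjusted p under 0.05 in edgeR. In MMI16 the only filled point is Ndufa10, and in Ami50 52 filled points lie above 0 and 4 below.

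Complex I contributed 26 of its 39 tested members to the rises in Ami50 and 2 to the falls. All 7 core subunits, which form the arm that oxidises NADH and hands electrons to ubiquinone, rose in both amitrole groups. Ndufs1, an iron-sulfur subunit, and Ndufv1, the NADH-binding flavoprotein, had log2 fold changes of 0.51 and 0.44 in Ami50. Ndufs7, the subunit with the iron-sulfur cluster next to ubiquinone, read 361 to 465 CPM in PD16 vehicle (median 413) and 487 to 776 in Ami50 (median 653), with no overlap.

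Among the 27 accessory subunits, 18 rose and 1 fell in Ami50. Ndufa7 read 496 to 688 CPM in PD16 vehicle (median 608) and 719 to 1571 in Ami50 (median 1039), with no overlap, and its log2 fold change was 0.87 ± 0.09 (SE, edgeR adjusted p = 6.65e-12). Of the assembly factors, which build the complex and do not stay in it, 1 of 5 tested rose and 1 fell in Ami50. Ndufaf7, a methyltransferase of the mitochondrial matrix, rose with a log2 fold change of 0.76 ± 0.15 (SE, edgeR adjusted p = 2.95e-05). Ndufaf5 fell by 0.32 on the log2 scale with an edgeR adjusted p of 0.0471, near the threshold of 0.05.

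Complex II, which is also an enzyme of the TCA cycle, had the member with the largest rise. Sdha, its flavoprotein subunit that oxidises succinate, read 227 to 358 CPM in PD16 vehicle (median 274), 255 to 423 in MMI8 (median 342), 168 to 447 in MMI16 (median 326), 558 to 891 in Ami25 (median 749) and 418 to 805 in Ami50 (median 729). No amitrole library overlapped with a vehicle library. In GD21 vehicle Sdha read 506 to 637 CPM (median 543). Its log2 fold change was 1.41 ± 0.10 in Ami25 (SE, edgeR adjusted p = 1.53e-19) and 1.38 ± 0.10 in Ami50 (SE, edgeR adjusted p = 1.56e-19). The other 3 subunits rose less in Ami50, with log2 fold changes of 0.48 for the iron-sulfur subunit Sdhb and of 0.49 and 0.27 for the membrane anchors Sdhc and Sdhd. The assembly factors Sdhaf1 and Sdhaf2 did not pass the test, at -0.01 and 0.16.

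**Figure D3:**
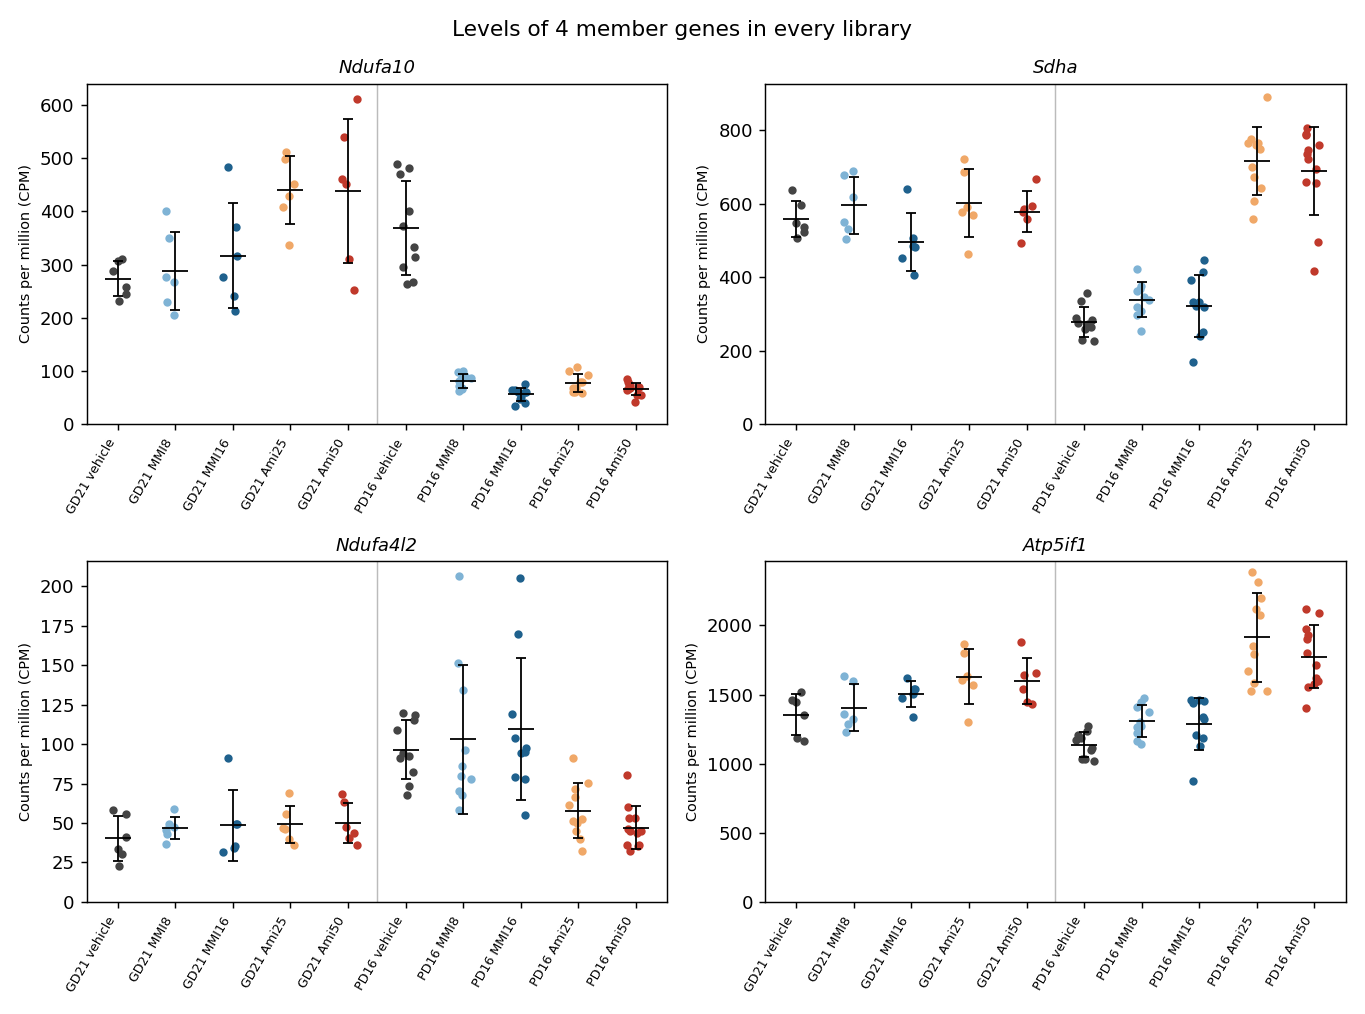
CPM of Ndufa10, Sdha, Ndufa4l2 and Atp5if1 in each of 83 libraries (points), with group mean and SD (bar and whiskers), in the 10 groups. For Ndufa10 all 43 treated PD16 libraries lie at 108 CPM or under and the other 40 at 205 CPM or over.

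In complex III, 5 of 9 members rose in Ami50 and none fell. Uqcrc2, a core protein of the matrix side, read 232 to 327 CPM in PD16 vehicle (median 285) and 352 to 485 in Ami50 (median 431), with no overlap, and its log2 fold change was 0.67 ± 0.08 (SE, edgeR adjusted p = 1.80e-11). Cyc1, the cytochrome c1 that hands electrons to cytochrome c, had a log2 fold change of 0.63 ± 0.16 (SE, edgeR adjusted p = 0.000715), and its groups overlapped, with 92.7 to 190 CPM in vehicle and 137 to 304 in Ami50. Uqcrfs1, the Rieske iron-sulfur protein, did not pass, at 0.26 ± 0.17 (SE, log2).

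Complex IV was the most mixed, with 7 of 15 members higher and 2 lower in Ami50. Cox4i1, the widely expressed form of subunit 4, read 1123 to 1294 CPM in PD16 vehicle and 1525 to 1727 in Ami50, with no overlap, and its log2 fold change was 0.52 ± 0.06 (SE, edgeR adjusted p = 1.51e-10). Its alternative form Cox4i2 stood at -0.08 and did not pass. Ndufa4, first assigned to complex I and now counted as a complex IV subunit, rose by 0.31. Its paralogue Ndufa4l2, known as a gene induced by low oxygen, fell: it read 68.0 to 120 CPM in PD16 vehicle (median 93.4), 54.9 to 205 in MMI16 (median 96.0), 32.0 to 90.9 in Ami25 (median 52.6) and 32.0 to 80.4 in Ami50 (median 44.8). These ranges overlapped, and its log2 fold change was -0.99 ± 0.19 in Ami50 (SE, edgeR adjusted p = 7.53e-06) and -0.68 in Ami25. Cox7b was the other member that fell, by 0.31 in Ami50 and by 0.50 in Ami25 on the log2 scale. Cox7a2l, which helps join complexes III and IV, rose by 0.38.

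In complex V, 11 of 16 members rose in Ami50 and none fell. Atp5f1a and Atp5f1b, the alpha and beta subunits of the catalytic head, had log2 fold changes of 0.56 and 0.61. Atp5if1, the inhibitor that blocks ATP hydrolysis by the enzyme, had the largest rise of the complex: it read 1019 to 1274 CPM in PD16 vehicle (median 1144), 1526 to 2388 in Ami25 (median 1849) and 1407 to 2119 in Ami50 (median 1756). Both amitrole groups lay wholly above vehicle, with log2 fold changes of 0.80 ± 0.08 and 0.72 ± 0.07 (SE, edgeR adjusted p = 5.94e-14 and 1.18e-12). Atp5mc1, Atp5mc2 and Atp5mc3, which encode the same mature ring subunit, did not pass, at 0.03, 0.16 and 0.21.

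The 2 amitrole doses were compared directly. No member was called between Ami50 and Ami25, nor was any of the 4906 genes (0.0%), and DESeq2 called 0 members too. At an unadjusted p under 0.05 in edgeR, 2 members were higher and none lower, where 2.28% of all genes were higher and 2.41% lower. The fitted log2 differences of the 85 members ran from -0.34 to 0.27, with a median of 0.06. Without the 8 Ami50 libraries with Eif2s3y under 10 CPM, 0 members were called between the doses. In that fit 10 of all genes were higher and 1 lower. Ami50 against MMI16, the high doses of the 2 drugs, had 53 members higher and 1 lower, where 22.6% of all genes were higher and 24.9% lower. Without the libraries high in Alb, 62 members were higher and 1 lower, and 1120 and 1069 of all genes. In the fit of all libraries of the stage, Ndufa7 stood at 0.76 ± 0.09 and Ndufa4l2 at -1.10 ± 0.19 (log2, SE) in Ami50 against MMI16. The doses of the drugs differ, so this sets the groups side by side.

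Methimazole left nearly all members uncalled at PD16, and the member that did fall was the same at both doses. In MMI16, 0 of 85 members were higher and 1 lower, where 0.856% of genes were higher and 7.26% lower (8.11%). DESeq2 called 0 higher and 2 lower, and 37 and 349 of all genes. At an unadjusted p under 0.05 in edgeR, 3 were higher and 3 lower, where 6.87% and 8.91% of all genes were. In MMI8, 2 were higher and 1 lower, where 1.47% of genes were higher and 6.89% lower (8.36%). The 84 members not called in MMI16 had fitted log2 fold changes between -0.26 and 0.31. The members higher in MMI8 were the assembly factor Ndufaf4, at 0.80 ± 0.21, and the accessory subunit Ndufa9, at 0.26 ± 0.08 (log2, SE). Ndufaf4 was near the detection limit: it read 10.4 to 26.2 CPM in vehicle and 25.7 to 54.9 in MMI8, and 1 count at the median PD16 total is 2.03 CPM.

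Ndufa10 was the only member called in all 4 treated PD16 groups, and it fell in each. The share of all genes called in all 4 was not counted. Of all genes, 6.89% were lower in MMI8, 7.26% in MMI16, 27.5% in Ami25 and 26.5% in Ami50. Ndufa10 is an accessory subunit that sits on the matrix side of the membrane arm of complex I and is related to nucleoside kinases. It read 264 to 489 CPM in PD16 vehicle (median 353), 61.6 to 99.6 in MMI8 (median 83.7), 33.7 to 75.6 in MMI16 (median 59.9), 59.4 to 108 in Ami25 (median 68.8) and 41.8 to 84.0 in Ami50 (median 68.3). No treated library reached the lowest vehicle library. The log2 fold changes were -2.22 ± 0.12 in MMI8, -2.79 ± 0.12 in MMI16, -2.21 ± 0.11 in Ami25 and -2.38 ± 0.11 in Ami50 (SE, all against the same vehicle, edgeR adjusted p of at most 1.20e-23). MMI16 lay below MMI8 by 0.57 ± 0.14 on the log2 scale (SE, edgeR adjusted p = 0.0123), the single member called between the methimazole doses, where 0.183% of genes were higher and 1.9% lower (2.08% in either direction). The table also holds Ndufa10l1, a similar copy of the gene, with 9 counts over all libraries, and how reads were shared between the copies is not known.

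Where the treated and vehicle libraries did not overlap at all, Ndufa10 stood alone among the members for methimazole: 1 member was wholly lower in MMI16, where 3.83% of all genes were, and 1 in MMI8, where 3.06% were. For Ami50, 17 members were wholly higher (5.2% of genes) and 1 wholly lower (8.76% of genes). For Ami25, 12 were wholly higher (4.97%) and 2 wholly lower (8.74%), Ndufa10 and Cox7b. In MMI16, 0 members were wholly higher, where 0.0204% of genes were. Vdac1, a porin of the outer membrane that is no member, was also called lower in all 4 treated PD16 groups: it averaged 2218 CPM in PD16 vehicle, 698 in MMI8, 531 in MMI16, 505 in Ami25 and 543 in Ami50, and at GD21 it averaged between 1716 and 2134 in the 5 groups.

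At GD21 no member was called in any treated group. edgeR called 0 of 87 members and 0 of 6236 genes (0.0%) in MMI8, MMI16, Ami25 and Ami50. At an unadjusted p under 0.05, it found 0, 0, 4 and 5 members, and 2.81%, 3.37%, 9.28% and 6.91% of all genes. DESeq2 called 1 member, Ndufa10, among 22 genes in Ami50 and no gene in the other 3 groups. Ndufa10 read 231 to 311 CPM in GD21 vehicle, 338 to 512 in Ami25 and 253 to 612 in Ami50. The Ami25 libraries lay wholly above vehicle, as 0.208% of genes did, and the log2 fold changes were 0.69 ± 0.19 in both groups (SE, edgeR adjusted p = 0.384 and 0.236). In GD21 MMI16, Cox5b, a complex IV subunit, lay wholly above vehicle (978 to 1073 against 888 to 977 CPM), as 0.128% of genes did. The fitted difference of Ndufa10 at GD21 had the opposite sign to that at PD16.

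Interaction terms tested whether the difference between treated and vehicle libraries differed between the labelled stages. Embryonic globin and Eif2s3y went against the labels of PD16 groups. The terms thus cannot tell a difference of treatment, of stage or of label apart, nor, for Ami50, a difference of sex. For Ami50 the difference from vehicle at PD16 exceeded that at GD21 for 30 of 87 members and was below it for 3. Of all genes, 16.4% were higher and 16.4% lower (32.8%). Without the libraries high in Alb the counts were 29 and 2 members, and 798 and 806 of all genes. The 30 included 6 of the 7 core subunits of complex I, and Sdha with a term of 1.28 ± 0.16 (log2, SE). For MMI16 the term was called for 0 members in the higher and 1 in the lower direction, where 0.111% and 5.11% of genes were. That member was Ndufa10, at -3.00 ± 0.22 for MMI16, and it stood at -3.11 ± 0.21 for Ami50 (log2, SE).

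The vehicle libraries of the 2 stages were also compared, with PD16 vehicle being the control above. Embryonic globins ran against these stage labels, so a difference of stage or of label cannot be told apart here. In PD16 vehicle, 52 of 87 members were lower and 6 higher than in GD21 vehicle, where 22.1% of all 6287 genes were lower and 24.4% higher (46.5%). Without the libraries high in Alb, 3 of the 6 in GD21 vehicle among them, 46 were lower and 5 higher. Of all genes, 1222 were lower and 1253 higher in that fit. The median log2 fold change was -0.28 for the members and 0.04 for all genes. All 7 core subunits of complex I were lower, as were 4 of 6 members of complex II, 5 of 9 of complex III, 9 of 15 of complex IV and 11 of 16 of complex V. Sdha fell by 1.15 ± 0.11, Cyc1 by 0.91 ± 0.17 and Cox8a by 0.78 ± 0.20 on the log2 scale (SE). The members that were higher included Ndufa4l2, at 1.14 ± 0.21, Atp5mc1 at 0.38 and the acyl carrier protein Ndufab1 at 0.44 (log2, SE for the first). Ndufa10 did not pass this test, at 0.28 ± 0.14 (log2, SE).

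PD16 Ami50 was also set against GD21 vehicle, in the fit of all 10 groups: 10 members were higher and 5 lower, where 5.95% of genes were higher and 7.71% lower, and the median log2 fold change was 0.02. Ndufa10 was lower by 2.12 ± 0.15 on the log2 scale (SE). Without the 8 libraries with Eif2s3y under 10 CPM, 0 members were higher and 1 lower, and leaving out the 15 libraries with high Alb left 2 higher and 2 lower. The genes called higher over the whole table went from 374 to 24 and to 127 in these fits, and those called lower from 485 to 352 and to 416.

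The genes around the chain are given from lists of their pathways. A list of regulators of mitochondrial genes, among them Nrf1, Gabpa and Yy1, had no called gene in PD16 Ami50 or PD16 MMI16. Genes too low to be tested count as uncalled there. The number tested is not given here, so the lack of calls is not set against the share of all genes. The whole list summed to 291 CPM on average in GD21 vehicle, a group in neither comparison. In PD16 Ami50, where 27.1% of all genes were higher and 26.5% lower, 13 of 17 genes of the TCA cycle rose and 1 fell. Of 13 genes of fatty acid oxidation, 12 rose, with a median log2 fold change of 1.04, and 1 fell. The one that fell was Cpt1a, the outer-membrane enzyme that commits fatty acids to oxidation, which stood at -1.70 ± 0.20 in Ami50 and -2.59 ± 0.23 in MMI16 (log2, SE). All 9 antioxidant enzymes of mitochondria rose in Ami50, among them Sod2 (1.36) and Prdx5 (1.34), and all 7 genes of mitochondrial steroid synthesis and cholesterol import did, with a median of 1.57. Of 68 mitochondrial ribosomal proteins 15 rose and 9 fell, with a median of 0.10, and of 16 genes of glycolysis 8 rose and 2 fell.

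**Figure D4:**
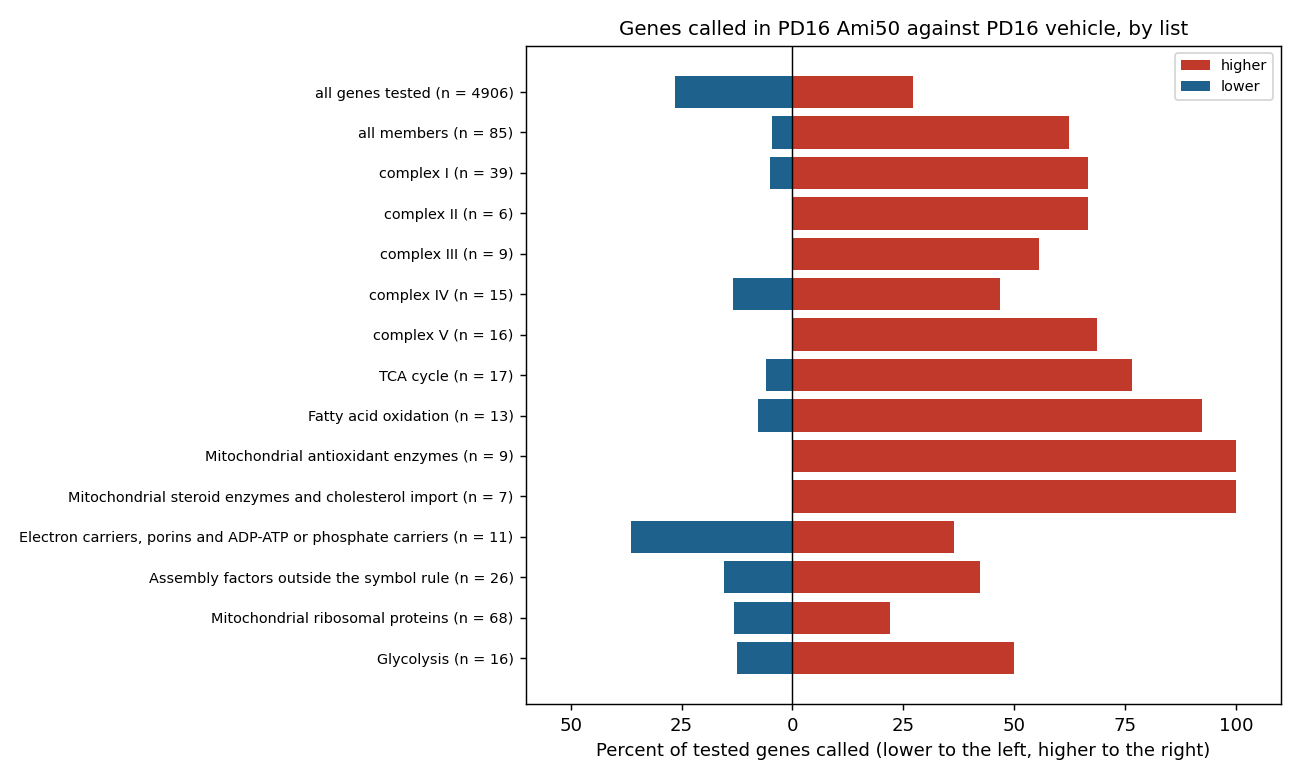
Percent of tested genes called higher (right of 0) and lower (left of 0) by edgeR in PD16 Ami50 against vehicle for all genes tested, all members, each complex and 8 lists of related genes, with the number tested in brackets. Of all members 53 of 85 were called higher, and of mitochondrial ribosomal proteins 15 of 68.

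Assembly factors whose symbols fall outside the naming rule were more mixed, with 11 of 26 higher and 4 lower in Ami50. Cox16, needed to assemble complex IV, rose by 1.07, and Coa5, another factor of complex IV, fell by 1.54 on the log2 scale. Coa5 also stood at -1.34 ± 0.21 in MMI16 (log2, SE). The electron carriers, porins and ADP-ATP or phosphate carriers split, with 4 of 11 higher and 4 lower. Etfdh, which feeds electrons from fatty acid oxidation into ubiquinone, rose by 1.71, while Slc25a4, an ADP-ATP carrier, fell by 0.72 on the log2 scale. In MMI16, where 0.856% of all genes were higher and 7.26% lower, 0 of 11 of these carriers were higher and 1, Vdac1, was lower. Of the 68 mitochondrial ribosomal proteins, 0 were higher and 2 lower in MMI16, Mrpl51 and Mrpl49.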

How the data were processed

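The authors deposited 1 table of raw counts, 1 row per gene symbol and 1 column per library. The submitters' processing notes name BWA 0.7.4.4 and build rn6; strand setting, annotation, barcode handling and the program that counted reads: not given in the sources used here. Reads of near-identical copies and pseudogenes may have been split. Counts were fitted in edgeR 4.0.16 (R 4.3.3) with filterByExpr (minimum count 10), TMM factors and robust quasi-likelihood F tests. One fit held the 5 groups of a stage, or all 10 where a comparison crossed stages. A call is a Benjamini-Hochberg adjusted p under 0.05 across all genes tested. SE is the size of the log2 fold change divided by the root of F. DESeq2 1.42.0 was an alternative. Simulated counts for PD16 MMI16 and PD16 Ami50 against vehicle held 50 changed genes per fold size. The fit recovered 10% of the 1.25-fold changes in both. It recovered 46% (MMI16) and 50% (Ami50) of the 1.5-fold changes, and 92% and 88% of the 2-fold changes. Of its calls, 8.82% and 6.2% were false, which is more than the adjusted p threshold of 0.05 allows. Changes under 1.5-fold can therefore stay uncalled. Many more genes were called in PD16 Ami50 (53.5% of 4906) than were changed in the simulation. The simulated rates may therefore not hold for that comparison, where members were called higher from 1.14-fold up. In 331 pairs of libraries of 1 group, counts differed by more than sampling noise (lowest chi-square 1.56 per degree of freedom).

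Members and lists were chosen with earlier results of these data known. Genes are named by a rule: per complex, up to 3 called members with the largest change in each direction (PD16 Ami50, PD16 MMI16 and vehicle across stages), up to 3 in each direction elsewhere, a fixed panel of subunits, the member with the highest level in each complex, and up to 2 called genes in each direction of each other list. Ndufs7, Sdhaf2 and the shares by motif were added after values were seen. Of the members, 86 matched RefSeq by symbol and 1 by synonym. RefSeq promoters are of GRCr8, and no rn6 coordinates are printed. One member is counted with its group but not reported by name here.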

Additional observations from a re-analysis of the deposited data

Results flagged for a closer look

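Library values apart from the rest of their group were looked for in 144 combinations of group and measure, in groups of 6 or 10 libraries. PD16 Ami25 and PD16 Ami50, with 11 and 12 libraries, were not checked. In the 144 combinations 9 such values were found, and chance alone gives some. In GD21 MMI16, library 48 was apart in 3 measures: summed complex I at 19967 CPM, Ndufa4l2 at 91.0 CPM and Ndufa7 at 950 CPM. In GD21 MMI8, Ndufaf4 was 7.82 CPM in library 69. In PD16 MMI16, library 9, the one with Alb at 200 CPM or more in that group, was apart in summed complex I (14131 CPM), Cox7b (757 CPM) and Ndufaf7 (16.0 CPM), and library 10, the one with the lowest total, in summed complex IV (10896 CPM). In PD16 vehicle, the sum of all members was 55712 CPM in library 60.

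By the interaction test, the difference from vehicle differed between labelled stages for 1 member in MMI16, in the lower direction (Ndufa10, -3.00). For Ami50 it did so for 30 members in the higher and 3 in the lower direction. Of all genes, 0.111% were higher and 5.11% lower for MMI16, and 16.4% and 16.4% for Ami50. Treatment, stage and label, and for Ami50 also sex, cannot be told apart in these terms. Among the genes described, the Ami50 terms (log2) were -3.11 for Ndufa10, 1.28 for Sdha, -1.35 for Ndufa4l2, 0.63 for Ndufaf7, 0.69 for Ndufa7, 0.67 for Uqcrc2, 0.79 for Cyc1, 0.43 for Atp5if1, 0.53 for Ndufa9 and -0.33 for Ndufab1, with edgeR adjusted p of at most 0.0379.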

How the results depend on the processing

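Alternatives to the reported fit were DESeq2, DESeq2's size factors within edgeR, TMM without globin genes, no filter, fits of the compared groups alone, a covariate for the number series of the titles, and fits leaving out PD16 MMI16 library 10 (low total), the 15 libraries high in Alb, or the 8 low in Eif2s3y. In PD16 Ami50 against vehicle they gave 46 to 55 members higher and 3 to 5 lower. Of all genes, 1138 to 1763 were higher and 1152 to 1559 lower. Counts that moved by over 1.5 times were these, with the number of all genes called the same way in brackets. MMI8 had 1 member higher with no filter (27), and 7 higher and 2 lower with the compared groups alone (140 and 337). MMI16 had 1 higher without library 10 (31) and 2 lower with DESeq2 (349). Without the Alb libraries, of which library 9 is in that group, MMI16 had 1 higher and 3 lower (35 and 360). Ami50 against MMI16 had 2 lower with DESeq2 (1223), TMM without globin genes (1247) and the compared groups alone (973). It also had 2 lower without library 10 (1200) and without the Eif2s3y libraries (1016). GD21 Ami50 had 1 higher with DESeq2 (22). PD16 Ami50 against GD21 vehicle had 6 higher with TMM without globin genes (248) and 1 with no filter (145). With the compared groups alone it had 4 higher and 3 lower (241 and 408). It had 2 and 2 without the Alb libraries (127 and 416), and 0 and 1 without the Eif2s3y libraries (24 and 352). The MMI16 interaction had 2 lower without the Alb libraries (276). With TMM factors the summed CPM of all members was 62809, 63546, 63527, 66101 and 65091 in GD21 vehicle, MMI8, MMI16, Ami25 and Ami50, and 52619 and 50921 in PD16 MMI8 and MMI16. Of 5839 values of 46 named genes, 5704 stayed on their side of the threshold, 48 passed it, 86 no longer passed, and 1 called value changed sign (228 uncalled ones also did): Ndufb8 in PD16 Ami50 stood at -0.0076 (log2, adjusted p = 0.968) without the Eif2s3y libraries. The causes were not tested. No paired analysis was possible because each library number in the labels belongs to 1 library. One count in the shallowest library equals 4.94 CPM, which limits the low members.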
